A study of Mus musculus with 13 samples.

Results

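The 10 tubulin genes described here were followed in stimulated mouse B cells with and without Whsc1. They were listed by symbol as the alpha tubulins Tuba1a, Tuba1b, Tuba1c and Tuba4a, the beta tubulins Tubb2a, Tubb2b, Tubb4b, Tubb5 and Tubb6, and the gamma tubulin Tubg1. These 10 were drawn from 47643 genes in the deposited table, and all 10 were among the 13947 genes with enough counts to be tested. RNA came from splenic B cells of the C57BL/6 strain in 2 groups, 7 libraries of WT and 6 of Whsc1-KO, which the design text calls independent biological replicates. Whsc1, also called Nsd2, encodes a histone methyltransferase. Loss of the gene kills the embryo, so the blood system of each mouse was rebuilt: RAG1-KO recipients were lethally irradiated and received fetal liver cells from littermate embryos that were either WT or Whsc1-KO. All 13 libraries therefore share irradiation, a RAG1-KO host and a fetal liver graft. RAG1-KO hosts make no mature B or T cells of their own, while cells of other lineages and of the spleen's framework can come from the host. B cells were enriched by removal of CD43-positive cells and cultured with lipopolysaccharide (LPS), a bacterial product that drives B cells to divide, at 25 µg/ml for 48 h in both groups. The age of the animals was not given in the sources used here.

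Tubulin is the building block of microtubules. One alpha and one beta tubulin form a dimer, dimers polymerise into the hollow filaments of the mitotic spindle and of the interphase cytoskeleton, and gamma tubulin sits in the ring complex from which new filaments start. Several genes encode near-identical alpha or beta chains, called isotypes, whose use differs between tissues. Cells also hold their tubulin mRNA in check: when free dimers are abundant, the factor Ttc5 binds the first residues of a tubulin chain as it leaves the ribosome and the mRNA is degraded.

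The members resemble one another closely, which limits how well reads can be assigned to a single gene. Their coding sequences ran from 444 to 451 codons without the stop. The coding sequences of Tuba1a and Tuba1b were 98.3% identical, those of Tuba1a and Tuba1c 97.1%, and those of Tuba1b and Tuba1c 97.9%, all 3 on chromosome 15. Tubb2a and Tubb2b, neighbours on chromosome 13, were 96.5% identical. Tuba4a shared 84.7% to 85.2% of its bases with the Tuba1 genes, and Tubb4b and Tubb5 shared 82.2%. How the counting step divided reads that match more than 1 copy is not given in the sources used here, so single values of the Tuba1 genes and of the Tubb2 pair are uncertain, and their sums are given beside them. The first 4 codons are shown because they hold the stretch that Ttc5 reads in alpha and beta chains, with the fourth codon in capitals, from the GENCODE M21 transcripts of mouse build GRCm38.
Tuba1a: atgcgtgagTGC
Tuba1b: atgcgtgagTGC
Tuba1c: atgcgtgagTGC
Tuba4a: atgcgcgagTGC
Tubb2a: atgcgcgagATC
Tubb2b: atgcgagagATC
Tubb4b: atgagggagATC
Tubb5: atgagggaaATC
Tubg1: atgccgagaGAA
The fourth codon was TGC in 4 of 4 alpha genes and ATC in the 4 beta genes shown, and Tubg1 had neither. The coding ends carry the acidic tail of the protein, the part in which isotypes usually differ most, and are shown for the closest beta pair. These are the last 21 codons with the stop, and capitals mark the bases in which the 2 genes differ.
Tubb2a: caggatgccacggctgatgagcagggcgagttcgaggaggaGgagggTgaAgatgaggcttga
Tubb2b: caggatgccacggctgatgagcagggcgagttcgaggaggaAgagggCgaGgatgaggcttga
Across this stretch Tubb2a and Tubb2b differed at 3 bases. Each is the last base of its codon and none changes the encoded residue, so the 2 genes encode the same tail here.

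The libraries held 38881664 to 53019516 reads in genes, so counting error was small for the members, the lowest of which had 258 normalized counts. The Whsc1 gene itself (chromosome 5, 33820725 to 33897975, plus strand) had normalized counts of 5537, 6821 and 7459 in the lowest, median and highest WT library, and of 3733, 4630 and 5261 in Whsc1-KO. The groups did not overlap, with a log2 fold change of −0.54 (limma adjusted p = 0.00049, SE 0.09), and the transcript remained in every Whsc1-KO library. Which exons the allele lacks is not given in the sources used here, so this count, taken over the full gene, is no measure of the deletion. Whsc1-KO replicates 1 to 3 and 4 to 6 lay apart on both of the first principal components. These held 48.5% and 16% of the variance, and the labels name no batch. The decrease in the Whsc1 count also differed between the sets of replicates. Its log2 fold change was −0.84 within replicates 1 to 3 (limma adjusted p = 0.000707) and −0.27 within replicates 4 and above (limma adjusted p = 0.0121). Xist and Y-linked counts placed WT replicates 1 to 5 and Whsc1-KO replicates 4 and 5 as female and the other libraries as male. Within replicates 1 to 3, sex and genotype cannot be told apart. A comparison without Whsc1-KO replicates 4 to 6 sets only male Whsc1-KO libraries against WT, in which replicates 1 to 5 are female. It separates sex from genotype only in part. B cell markers were high in all libraries, with summed normalized counts of 338410 to 394199 in WT, 287349 to 299462 in Whsc1-KO replicates 1 to 3 and 223111 to 231226 in replicates 4 to 6. The T cell receptor genes Cd3e, Cd3d and Cd3g had group means of 0.28 to 6.76.

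Tubulin mRNA was higher in Whsc1-KO than in WT for 7 of the 10 genes, led by Tubb6, Tuba1c, Tuba4a and Tubb4b, and no member was lower. The 3 that did not pass the test were Tuba1a, Tubb5 and Tubb2b. The median log2 fold change of the 10 was 0.76, against −0.003 for all tested genes. Of all tested genes, 26.1% were called higher and 25.7% called lower at the same limma threshold of an adjusted p under 0.05. Among protein-coding genes spanning under 10 kb with a mean normalized count of 1000 or more, a set that leaves out Tubb2a, Tubb2b and Tubb6, 43.9% were higher and 20.5% lower. In 6 members every Whsc1-KO library lay above every WT library, as it did for 9.03% of all tested genes. In bulk RNA, more cells of a type and more RNA per cell cannot be told apart.

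**Figure D1:**
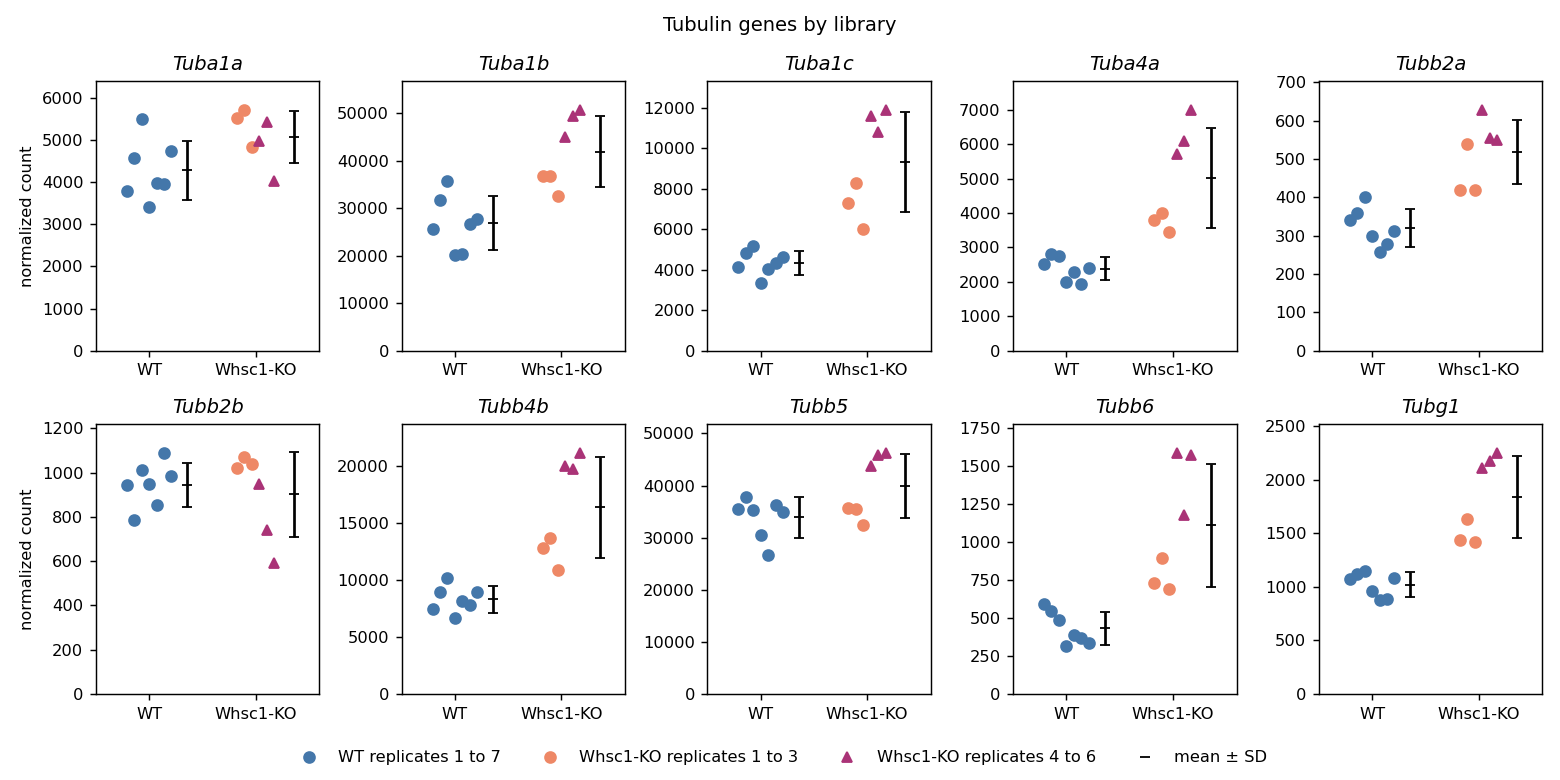
Normalized count (y axis, starting at 0, a separate scale for each gene) of the 10 tubulin genes in each of the 7 WT and 6 Whsc1-KO libraries, with the mean and SD of each group beside the points. Whsc1-KO replicates 1 to 3 and 4 to 6 have separate symbols, and the 6 genes without overlap between the groups are Tuba1c, Tuba4a, Tubb2a, Tubb4b, Tubb6 and Tubg1.

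Among the alpha tubulins, 3 of 4 rose and Tuba1b remained by far the most abundant. Tuba1b (ENSMUSG00000023004, chromosome 15, 98931425 to 98934565, minus strand) encodes the alpha chain found in most dividing cells. Its normalized count was 20199, 26616 and 35807 in the lowest, median and highest WT library, and 32641, 40896 and 50710 in Whsc1-KO. Only WT replicate 3 lay above the lowest Whsc1-KO library, and the log2 fold change was 0.65 (limma adjusted p = 0.00235, SE 0.15). That call did not hold without Whsc1-KO replicates 4 to 6, when the log2 fold change was 0.42 (limma adjusted p = 0.0647).

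Tuba1c (ENSMUSG00000043091, chromosome 15, 99029891 to 99038110, plus strand), another gene of the same cluster, had 3349, 4339 and 5156 in the lowest, median and highest WT library and 6003, 9564 and 11896 in Whsc1-KO. The 2 groups did not overlap, and the Whsc1-KO mean was 2.14-fold the WT mean. The log2 fold change was 1.07 (limma adjusted p = 0.000159, SE 0.16). Tuba1a (ENSMUSG00000072235, chromosome 15, 98949837 to 98953703, minus strand), the alpha tubulin best known from developing neurons, had 3400, 3984 and 5496 in WT and 4021, 5197 and 5711 in Whsc1-KO. Its groups overlapped, with 3 WT libraries at or above the lowest Whsc1-KO library. The log2 fold change of 0.25 (SE 0.11) did not pass (limma adjusted p = 0.0624). The 3 Tuba1 genes summed, which removes the division of reads between them but not any loss of reads that match several copies, gave 35494 ± 6854 (SD, n = 7) in WT and 56276 ± 9580 in Whsc1-KO (SD, n = 6). These sums overlapped, 26948 to 46459 against 43470 to 66628.

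Tuba4a (ENSMUSG00000026202, chromosome 1, 75214228 to 75219865, minus strand) encodes the one alpha chain in the set whose gene does not end in the usual tyrosine codon. It had 1947, 2402 and 2820 in the lowest, median and highest WT library and 3464, 4849 and 6997 in Whsc1-KO. All Whsc1-KO libraries were above all WT libraries, at 2.1-fold the mean. The log2 fold change was 1.03 (limma adjusted p = 0.000258, SE 0.16).

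Among the beta tubulins, the minor genes Tubb6 and Tubb2a and the second most abundant gene Tubb4b rose, while the most abundant, Tubb5, did not pass. Tubb5 (ENSMUSG00000001525, chromosome 17, 35833921 to 35838306, minus strand) encodes the main beta chain of proliferating cells. Its normalized count was 26598, 35314 and 37858 in the lowest, median and highest WT library and 32412, 39675 and 46223 in Whsc1-KO. Whsc1-KO replicates 4 to 6 lay above all WT libraries and replicates 1 to 3 lay among them. The log2 fold change was 0.23 (limma adjusted p = 0.0799, SE 0.11).

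Tubb4b (ENSMUSG00000036752, chromosome 2, 25222160 to 25224702, minus strand), a widely expressed beta tubulin also used in cilia, had 6636, 8139 and 10183 in the lowest, median and highest WT library and 10869, 16746 and 21153 in Whsc1-KO. The groups did not overlap, and the mean was 1.97-fold higher. The log2 fold change was 0.95 (limma adjusted p = 0.000353, SE 0.16). Tubb6 (ENSMUSG00000001473, chromosome 18, 67390717 to 67402749, plus strand), a divergent beta tubulin, moved furthest of the members. It had 312, 386 and 594 in WT and 690, 1036 and 1584 in Whsc1-KO. The groups were again separate, with a log2 fold change of 1.32 (limma adjusted p = 0.000433, SE 0.22).

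Tubb2a and Tubb2b, both best known from neurons, did not move alike: Tubb2a rose and Tubb2b did not pass. Tubb2a (ENSMUSG00000058672, chromosome 13, 34074274 to 34078007, minus strand) had 258, 312 and 402 in the lowest, median and highest WT library and 418, 544 and 628 in Whsc1-KO. Its groups did not overlap, and the log2 fold change was 0.69 (limma adjusted p = 0.000635, SE 0.12). Tubb2b (ENSMUSG00000045136, chromosome 13, 34126748 to 34130466, minus strand) had 788, 948 and 1088 in WT and 592, 984 and 1069 in Whsc1-KO. The Whsc1-KO range enclosed most of the WT range, and the log2 fold change was −0.09 (limma adjusted p = 0.584, SE 0.13). The 2 genes summed to 1267 ± 109 (SD, n = 7) in WT and 1420 ± 176 in Whsc1-KO (SD, n = 6), and the sums overlapped.

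Tubg1 (ENSMUSG00000035198, chromosome 11, 101119938 to 101126419, plus strand) encodes the gamma tubulin that most cells use to nucleate microtubules. Its normalized count was 875, 1074 and 1152 in the lowest, median and highest WT library and 1422, 1870 and 2248 in Whsc1-KO. No WT library reached the lowest Whsc1-KO library. The log2 fold change was 0.83 (limma adjusted p = 0.000186, SE 0.12). In the authors' deposited table the same number of members, 7, had an adjusted p under 0.05, with log2 fold changes from 0.62 for Tuba1b to 1.26 for Tubb6.

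Levels of different genes were compared per kilobase of the longest annotated transcript. On this scale the mean WT level of Tuba1b was 15416 normalized counts per kb, followed by Tuba1a at 2371, Tuba1c at 2194 and Tuba4a at 841. The WT ranges of Tuba1a and Tuba1c overlapped across libraries, although Tuba1a was at or above Tuba1c within each of the 7. Without the length correction that order was mixed, with ratios of Tuba1c to Tuba1a from 0.94 to 1.1 in WT. Per kb, Tuba1b lay above both genes and Tuba4a below both in every WT library. In Whsc1-KO the mean of Tuba1c was 4702 and that of Tuba1a 2817, with overlapping ranges of 3029 to 6002 and 2230 to 3168. Among beta tubulins the mean WT levels were 12785 for Tubb5, 5191 for Tubb4b, 433 for Tubb2b, 246 for Tubb6 and 200 for Tubb2a, all per kb. The ranges of the last pair overlapped in WT. In Whsc1-KO the mean of Tubb6, 631 per kb, was above that of Tubb2b at 413, although their ranges of 393 to 901 and 272 to 490 overlapped. Tubg1, at 566 per kb in WT and 1019 in Whsc1-KO, was far below the main alpha and beta genes. Summed per kb, alpha tubulin had a mean of 20822 ± 3970 in WT against 33308 ± 5836 in Whsc1-KO, and beta tubulin 18854 ± 1927 against 26679 ± 5222 (SD, n = 7 and n = 6). For these sums no test was run, and both pairs of ranges overlapped.

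In the beta tubulin pool the shares of Tubb5, Tubb4b and Tubb6 did not overlap between the groups, while those of Tubb2a and Tubb2b did. Tubb5 made up 67.8% ± 2.96 (SD, n = 7) of the summed beta level per kb in WT, from 63.1% to 70.4%, and 56.9% ± 2.84 (SD, n = 6) in Whsc1-KO, from 53.7% to 60.7%. Tubb4b made up 27.6% ± 2.96 (SD, n = 7) in WT and 37.9% ± 3.05 in Whsc1-KO (SD, n = 6), with ranges of 24.5% to 32.0% and 33.7% to 41.1%. The difference in mean share was −10.9 points for Tubb5 and 10.4 points for Tubb4b. The share of Tubb6 was small, 0.965% to 1.77% in WT and 1.84% to 2.93% in Whsc1-KO. Tubb2a had 0.891% to 1.21% in WT and 1.06% to 1.43% in Whsc1-KO, and Tubb2b 1.74% to 2.63% and 0.843% to 2.36%. The shift of Tubb5 was present in both sets of Whsc1-KO libraries, with mean shares of 59.2% in replicates 1 to 3 and 54.6% in replicates 4 to 6. Without the length correction Tubb5 had 77.1% in WT and 68.2% in Whsc1-KO, again with no overlap. Within the alpha pool all 4 shares overlapped. Tuba1b held 73.8% ± 1.98 (SD, n = 7) in WT and 72.1% ± 1.08 in Whsc1-KO (SD, n = 6), Tuba1c 10.6% and 13.9%, Tuba4a 4.09% and 5.21%, and Tuba1a 11.5% and 8.74%.

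**Figure D2:**
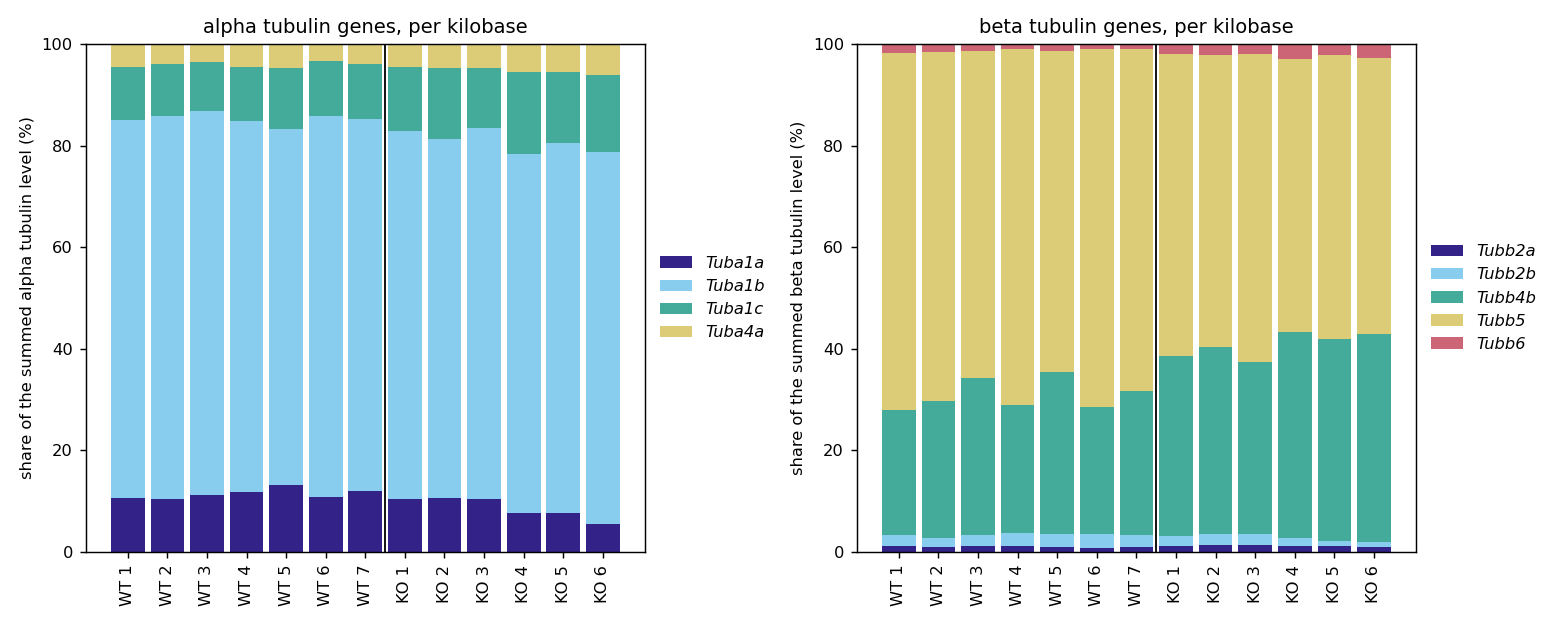
Share (y axis, %) of each gene in the summed alpha tubulin level (left) and beta tubulin level (right), in normalized counts per kb, with 1 stacked bar for each library and a line between the 7 WT and 6 Whsc1-KO libraries. Tubb5 has 63.1% to 70.4% of beta tubulin in WT and 53.7% to 60.7% in Whsc1-KO, and Tubb4b takes a larger share in every Whsc1-KO library than in any WT library.

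Ratios within the near-identical copies measured how unequally they changed. Over 4 pairs, each was tested with an exact two-sided permutation test, for which the smallest possible p is 0.000583. The ratio of Tuba1c to Tuba1a was 0.94 to 1.1 in WT and 1.24 to 2.96 in Whsc1-KO, without overlap. The log2 ratio was higher in Whsc1-KO by 0.81 (exact permutation p = 0.000583, adjusted over the 4 pairs 0.00233). Tubb2a to Tubb2b went from 0.26 to 0.45 in WT to 0.4 to 0.93 in Whsc1-KO, a log2 difference of 0.78 (exact permutation p = 0.00408, adjusted 0.00544). Without Whsc1-KO replicates 4 to 6 that difference was 0.37 and the call was lost (exact permutation p = 0.0667). Tuba1c to Tuba1b differed by 0.42 (exact permutation p = 0.00175, adjusted 0.0035). Tuba1b to Tuba1a differed by 0.39 (exact permutation p = 0.0204, adjusted 0.0204), and that call was lost without WT replicate 4, 5 or 7 (exact permutation p = 0.0628 each), without Whsc1-KO replicate 6 (0.053) and without Whsc1-KO replicates 4 to 6 (0.442). Within replicates 1 to 3, where no p below 0.1 is possible, the log2 differences were 0.39 for Tuba1c to Tuba1a, 0.41 for Tuba1c to Tuba1b, 0.12 for Tubb2a to Tubb2b and −0.02 for Tuba1b to Tuba1a. A change in such a ratio does not say which of the 2 genes moved, and reads assigned to the wrong copy would enter both.

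The size of the change differed between the sets of replicates, which hold different WT as well as different Whsc1-KO libraries. Mean WT counts were lower in replicates 4 to 7 than in 1 to 3, with 23734 and 31052 for Tuba1b and 349 and 542 for Tubb6. Only Tubb2b went the other way, with 968 and 914. Whsc1-KO replicates 1 to 3 against all WT libraries gave log2 fold changes of 0.42 for Tuba1b and 0.87 for Tubb6. For 9 of 10 members, all but Tubb2b, the log2 fold change was larger within replicates 4 and above, 4 WT against 3 Whsc1-KO, than within replicates 1 to 3. Tubb6 had 2.04 (limma adjusted p = 9.56e-06) in the later set and 0.50 (limma adjusted p = 0.0368) in the earlier one. Tuba4a had 1.54 (limma adjusted p = 9.81e-06) and 0.48 (limma adjusted p = 0.00791), and Tubb4b 1.37 (limma adjusted p = 1.21e-05) and 0.50 (limma adjusted p = 0.0354). Tubg1 had 1.2 and 0.42, and Tuba1c 1.49 and 0.61. Tuba1b was 1.04 (limma adjusted p = 0.000155) in the later set and 0.20 (limma adjusted p = 0.291) in the earlier one. Tubb2a was 1.01 (limma adjusted p = 7.7e-05) in the later set and 0.31 (limma adjusted p = 0.159) in the earlier one. The log2 fold change of Tuba1a was alike in both, 0.26 and 0.22, and passed in neither. Its means were lower in the later set in both groups, 4017 against 4621 in WT and 4805 against 5352 in Whsc1-KO. The difference between the sets was not itself tested.

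Tubb5 and Tubb2b were the members whose direction depended on the set. Tubb5 had mean normalized counts of 36231 in WT and 34508 in Whsc1-KO within replicates 1 to 3, and of 32095 and 45287 within replicates 4 and above. The later set gave a log2 fold change of 0.51 (limma adjusted p = 0.00311) and the earlier one −0.07 (limma adjusted p = 0.551). Tubb2b had 1019, 1069 and 1041 in Whsc1-KO replicates 1 to 3 and 950, 741 and 592 in replicates 4 to 6, so the 3 lowest of the group were all in the later set. Its log2 fold changes were 0.20 (limma adjusted p = 0.235) in the earlier set and −0.37 (limma adjusted p = 0.0667) in the later one.

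In counts of members, 8 of 10 were higher within replicates 4 and above, where 30% of all tested genes were higher and 30.1% lower, and 5 of 10 within replicates 1 to 3, where 6.79% were higher and 8.76% lower. Without Whsc1-KO replicates 4 to 6, 6 of 10 members were higher, against 14% of all tested genes, with 15.6% lower. Those 6 were Tuba1c, Tuba4a, Tubb2a, Tubb4b, Tubb6 and Tubg1, with log2 fold changes from 0.52 for Tubb2a to 0.87 for Tubb6. With a score of sex as a covariate 7 members were higher, from 0.69 for Tuba1b to 1.49 for Tubb6. In that fit 3770 of all tested genes were higher and 3822 lower.

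**Figure D3:**
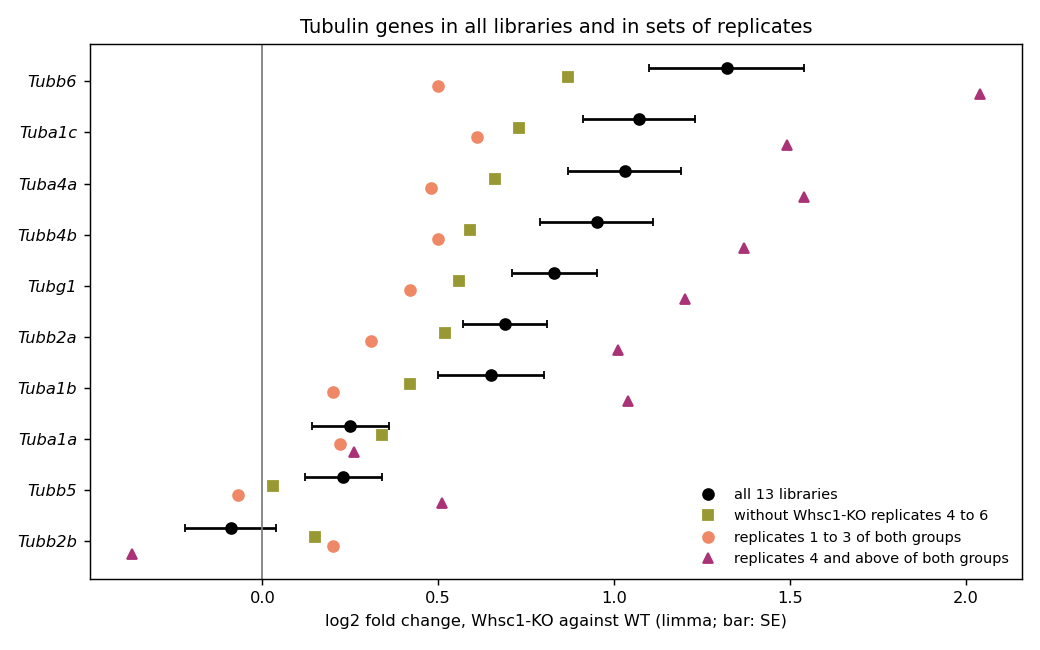
Log2 fold change of Whsc1-KO against WT (x axis, limma on log2 of the normalized count plus 1) for each tubulin gene, in all 13 libraries with the SE as a bar, without Whsc1-KO replicates 4 to 6, within replicates 1 to 3 and within replicates 4 and above. Tubb6 runs from 0.50 to 2.04, Tuba1a stays between 0.22 and 0.34, and Tubb2b lies at 0.20 in replicates 1 to 3 and −0.37 in replicates 4 and above.

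Other markers moved with these sets. Called counts among them are to be read against the 26.1% of all tested genes called higher and 25.7% called lower. The division markers Mki67, Top2a and Ccnb1 were all higher in Whsc1-KO, with log2 fold changes of 0.74, 0.67 and 1.1. Their summed normalized counts were 49215 to 68948 in WT, 77628 to 80461 in Whsc1-KO replicates 1 to 3 and 111960 to 117384 in replicates 4 to 6, the same order of sets as for most tubulin genes. Erythroid markers, of which 4 of 5 tested were higher, summed to 862 to 3320 in WT, 2568 to 3046 in Whsc1-KO replicates 1 to 3 and 12906 to 194415 in replicates 4 to 6. The top of that last range was replicate 6 alone, where Hbb-bs had 78000 against 5579 and 10154 in replicates 4 and 5. Myeloid markers, of which 6 of 6 tested were higher, summed to 317 to 737 in WT, 1140 to 1494 and 11133 to 13419 in the same sets, with Elane at 0 in all libraries. Of the B cell markers 4 of 6 were lower. Platelet and megakaryocyte markers summed to 46.8 to 85.0 in WT and 48.0 to 203 in Whsc1-KO, with 1 of 2 tested higher. T cell markers summed to 555 to 982 and 789 to 1035, nearly all of it Lck, which was the 1 tested and was higher. Stromal and endothelial markers summed to 7046 to 8405 and 5295 to 6668, nearly all of it Pecam1, with 2 of 3 tested lower. Of the others, Cdh5 had means of 68.8 and 41.5, and Col1a1, too low to be tested, 1.92 and 7.41. Without Whsc1-KO replicates 4 to 6, 3 division, 1 erythroid and 2 myeloid markers were higher, against 14% of all tested genes. In that setting 4 B cell markers and 1 stromal and endothelial marker were lower, against 15.6%. The platelet and T cell calls were lost there. The part of cell division or of other cell types in the tubulin values was not tested, and sex entered only as the covariate score given above.

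Upstream sequence was matched by symbol for 7 of the 10 genes from RefSeq (GRCm38.p6), and 2 windows of 250 bases before the annotated start are shown because Tubb4b and Tuba1c rose together. The motif searched was CCAAT on both strands, the core of the binding site of NF-Y, a factor of many cell cycle promoters. Matches are in capitals, as CCAAT or its reverse complement ATTGG.
Tubb4b, chr2:25224703-25224952, minus strand: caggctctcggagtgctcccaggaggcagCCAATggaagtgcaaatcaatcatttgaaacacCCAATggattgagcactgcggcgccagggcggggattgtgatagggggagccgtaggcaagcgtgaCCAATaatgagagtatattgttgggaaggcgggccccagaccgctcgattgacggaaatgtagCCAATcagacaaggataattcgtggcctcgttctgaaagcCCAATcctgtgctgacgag
Tuba1c, chr15:99029641-99029890, plus strand: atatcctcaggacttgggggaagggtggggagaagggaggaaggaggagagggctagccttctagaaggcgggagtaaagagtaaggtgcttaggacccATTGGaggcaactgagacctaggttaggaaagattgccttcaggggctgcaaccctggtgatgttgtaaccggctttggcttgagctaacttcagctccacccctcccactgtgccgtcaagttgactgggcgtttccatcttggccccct
The Tubb4b window held 5 matches and the Tuba1c window 1. Of the 7 windows read, 4 held at least 1 match, among them Tubb5 with 2 and Tuba1a with 1. Of 32851 RefSeq windows of the same length, 33.8% held at least 1 match, 10.1% held 2 or more and 0.213% held 5 or more. The motif TTTGAA, also on both strands and not overlapping the CCAAT matches, was found in 1 of the 7 windows, that of Tubb4b, and in 16% of all windows. Tuba1b, Tuba4a and Tubb2a, which were higher in Whsc1-KO, held neither motif in this window. The RefSeq starts differ from the GENCODE spans given above. The Tuba4a window (75219295 to 75219544) lies within its GENCODE span, and those of Tuba1b, Tuba1a and, at the edge, Tubb5 overlap theirs. A missing motif in the Tuba4a or Tuba1b window therefore says little about the sequence before the GENCODE start.

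Counts of called genes in the related lists are to be read against the 26.1% of all tested genes called higher and 25.7% called lower, and, without Whsc1-KO replicates 4 to 6, against 14% and 15.6%. Prefoldin, which hands new tubulin chains to the chaperonin, had 4 of 6 subunits higher and 1 lower, and the median log2 fold change was 0.38. Pfdn4 rose by 0.56 (limma adjusted p = 0.000306), Pfdn6 by 0.47 (limma adjusted p = 0.000612), Pfdn2 by 0.42 (limma adjusted p = 0.000501) and Pfdn1 by 0.34 (limma adjusted p = 0.000761), while Pfdn5 fell by 0.29 (limma adjusted p = 0.00816). Of the 8 subunits of CCT, the chaperonin that folds actin and tubulin, 4 were higher and none lower, and the median was 0.24. These were Cct3 at 0.58, Cct6a at 0.54, Cct8 at 0.42 and Cct7 at 0.35 on the log2 scale. Of the 7 cofactors that assemble and take apart the dimer, 3 were higher and 2 lower. The median was −0.10, so the median and the count differ in sign. Tbcb, which holds alpha tubulin, was higher by 0.73 (limma adjusted p = 0.000112) and Tbcd by 0.20, while Tbcel was lower at −0.33 (limma adjusted p = 0.000362) and Tbca, which holds beta tubulin, at −0.26. Without Whsc1-KO replicates 4 to 6 the counts were 4 higher and 0 lower for prefoldin, 3 and 0 for CCT, and 1 and 2 for the cofactors.

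The gamma tubulin ring complex and its anchors, in which Tubg1 works, had 2 of 9 genes higher and 2 lower, near the 26.1% and 25.7% of all tested genes, and the median log2 fold change was 0.03. Cdk5rap2, which anchors the ring complex at centrosomes, was lower at −0.46 (limma adjusted p = 0.000201) and the ring subunit Tubgcp5 at −0.32 (limma adjusted p = 0.00041). The core subunits Tubgcp2 and Tubgcp3 were higher by 0.29 and 0.21. Augmin, the complex that branches new microtubules off existing ones in the spindle, had 6 of 8 subunits higher and 0 lower, and the median was 0.34. Its leading members were Haus5 at 0.57 (limma adjusted p = 0.000263), Haus4 at 0.53 (limma adjusted p = 0.000834), Haus8 at 0.48 and Haus7 at 0.36. Without Whsc1-KO replicates 4 to 6 the ring complex had 0 higher and 2 lower, and augmin 3 higher and 0 lower. In this setting the call on Haus7 was among those lost (limma adjusted p = 0.0711).

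Of 23 enzymes that modify tubulin, 17 were tested, with 5 higher, near the 26.1% of all tested genes, and 7 lower, against 25.7%, and the median log2 fold change was −0.26. Ttll9, a member of the tubulin ligase family that adds glutamates, had a mean of 107 in WT and 348 in Whsc1-KO, with 1.74 on the log2 scale (limma adjusted p = 2.56e-05). Agbl3, a carboxypeptidase that trims glutamates, had means of 159 and 55.5, with −1.60 on the log2 scale (limma adjusted p = 0.000203). Ttll3, which adds glycine, was lower at −1.04 (limma adjusted p = 0.00059). The acetyltransferase Atat1 was higher by 0.56, the deacetylase Hdac6 by 0.35, Ttll5 by 0.30 and Ttll12 by 0.30. Without Whsc1-KO replicates 4 to 6 the counts were 2 higher, among them Ttll9 at 1.71, and 4 lower, against 14% and 15.6% of all tested genes.

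Of 11 genes that sever or depolymerise microtubules, 7 were tested, with 3 higher and 2 lower, and the median log2 fold change was 0.45. Fignl1 was higher by 0.70 and Stmn1, which binds free dimers, by 0.49, while Katnal1 was lower at −0.45 and Katna1 at −0.16. Of 18 genes that aid growth or stabilise microtubules, 5 were higher, near the 26.1% of all tested genes, 2 lower, against 25.7%, and 11 did not pass, and the median was 0.02. The spindle factors Tpx2 and Dlgap5 were higher by 0.79 and 0.67. Camsap3, which caps minus ends, was higher by 2.18 from a low mean of 11.6 in WT to 57.0 in Whsc1-KO, while Map7, a kinesin cofactor, was lower at −0.91 (limma adjusted p = 0.000255) and Camsap2 at −0.26. Without Whsc1-KO replicates 4 to 6, 1 severing gene was higher and 1 lower, and 2 growth genes were higher and 2 lower.

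Of the 3 factors that degrade tubulin mRNA, the nascent chain reader Ttc5 did not pass, with means of 1590 in WT and 1562 in Whsc1-KO (log2 fold change −0.02, limma adjusted p = 0.702). Scaper, which joins Ttc5 to the deadenylase, had means of 950 and 513 and was lower at −0.92 (limma adjusted p = 0.00108). Its groups did not overlap, and it was lower at −0.56 (limma adjusted p = 0.0226) without Whsc1-KO replicates 4 to 6. Cnot11, the deadenylase subunit that Scaper binds, was higher by 0.21 (limma adjusted p = 0.0254), a call lost without those replicates (limma adjusted p = 0.495).

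**Figure D4:**
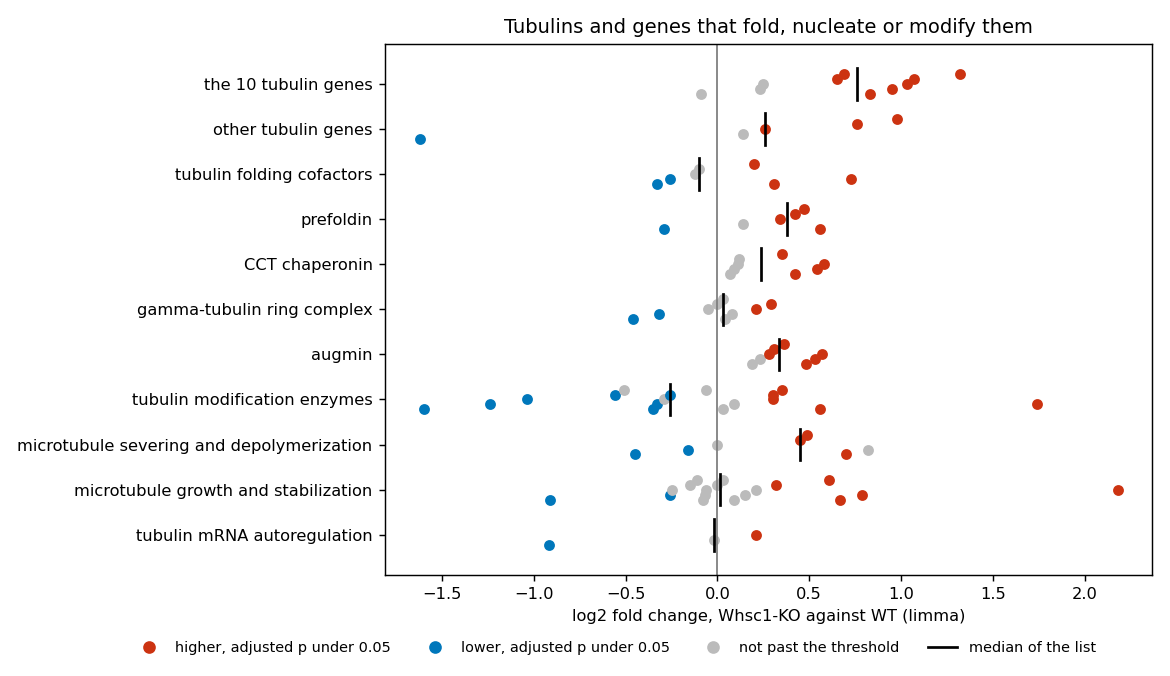
Log2 fold change of Whsc1-KO against WT (x axis) for every tested gene of the tubulin family and of 9 lists of genes that fold, nucleate, modify, sever, stabilise or degrade tubulin, coloured by the limma call, with a line at the median of each list. The median is 0.76 for the 10 tubulin genes, 0.38 for prefoldin, 0.34 for augmin and −0.26 for the modification enzymes.

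A further 12 tubulin symbols in the table, 2 of them pseudogenes, held 0.85% to 1.46% of all tubulin normalized counts in a library. Of these, 5 were tested, with 3 higher and 1 lower, against 26.1% and 25.7% of all tested genes. Tubb3, a beta tubulin best known from neurons, had 26.4, 49.7 and 72.4 in the lowest, median and highest WT library and 82.5, 86.6 and 124 in Whsc1-KO. The groups did not overlap, with a log2 fold change of 0.98 (limma adjusted p = 0.00368, SE 0.24). Tubb4a, a brain isotype, went the other way, from 39.3, 67.6 and 162 in WT to 17.6, 20.2 and 48.8 in Whsc1-KO. Its log2 fold change was −1.62 (limma adjusted p = 0.0012, SE 0.33), and the ranges overlapped. Tubg2, the second gamma tubulin and the neighbour of Tubg1 on chromosome 11, was higher by 0.76 (limma adjusted p = 0.00385), and Tubd1, the delta tubulin of centrioles, by 0.26 (limma adjusted p = 0.0418). The call on Tubd1 was lost without Whsc1-KO replicates 4 to 6 (limma adjusted p = 0.426). The epsilon tubulin Tube1 had 0.14 (limma adjusted p = 0.33). Tubb1, the platelet isotype, had means of 2.51 in WT and 2.70 in Whsc1-KO, and Tubal3 was at 0 in all libraries.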

How the data were processed

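RNA was measured by stranded, poly-A selected paired-end sequencing with 76-base reads, per the labels' protocols. The signal values used are the authors' deposited normalized counts, and the values themselves show read counts scaled by 1 step per library. Division by that step gave whole reads for 100% of low values in every library (tolerance 0.05 reads), and these reads were summed to give depth. From the results table that the authors deposited, which lists log2 fold changes, a score and p-values, only the members' log2 fold changes and adjusted p-values are quoted. The submitters' processing notes name the builds GRCm38 and mm9 and the tools DESeq2 1.10.1, RSEM 1.2.28 and STAR 2.5.1b, without their roles. Columns were matched to samples by genotype and replicate number.

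Log2(normalized count + 1) was tested with limma 3.58.1 (trended variance, two-sided, threshold 0.05), with Benjamini-Hochberg adjustment over the 13947 genes that reached 10 normalized counts in 6 or more libraries. Fold changes on this scale understate the change of low genes. Alternatives were edgeR 4.0.16, which called 3706 genes higher and 3469 lower on the recovered reads, DESeq2 1.42.0, other scalings, filters, pseudocounts and sets of libraries. Work was done in R 4.3.3 and Python 3.11.15 (scipy 1.17.1, numpy 2.4.6, matplotlib 3.10.9, pandas 2.3.3). Only the main limma fit was tried on simulated counts, which held no replicate sets and no sex difference. Coordinates, lengths and coding sequences came from GENCODE M21 on GRCm38, to which 47224 of 47643 identifiers (99.1%) matched, and upstream sequences from RefSeq on GRCm38.p6.

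The tubulin genes, the related lists and the sets of replicates were chosen with earlier results of these data known. All members were named, and from each list the 4 tested genes of smallest adjusted p and those called against the list's majority. Some items that this rule names are not reported here.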

Additional observations from a re-analysis of the deposited data

How the results depend on the processing

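Between 5 and 9 tubulin genes were higher, and 0 lower, under all 29 alternatives. The count was 7 with edgeR, DESeq2, TMM or upper quartile scaling, other pseudocounts and filters, the sex score and a threshold of 0.01. It was 9 with scaling to the library total, which moved the median of all genes to 0.07. That scaling brought Tuba1a (0.33) and Tubb5 (0.30) past the threshold. With library weights the count was 8, Tubb5 (0.33) being added. Among all tested genes, 4369 were higher and 2923 lower with library total scaling, and 4653 and 4695 with library weights. The main fit gave 3636 and 3588. Leaving out 1 library gave 7 to 8: Tuba1a passed without WT replicate 3 or Whsc1-KO replicate 6 (0.32 each) and Tubb5 without Whsc1-KO replicate 3 (0.29). Direction turned for Tubb2b, to 0.02 without Whsc1-KO replicate 6 (from −0.15 to 0.02 over the libraries left out), 0.15 without Whsc1-KO replicates 4 to 6 and 0.20 within replicates 1 to 3, and within replicates 1 to 3 for Tubb5 (−0.07) and for the ratio of Tuba1b to Tuba1a (−0.02). The cause was not tested.

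Of all tested genes, 3636 were higher and 3588 lower with all libraries, 1947 and 2177 without Whsc1-KO replicates 4 to 6, and 947 and 1222 within replicates 1 to 3, where fewer samples entered. With a replicate block 7 members were higher, and 3023 of all tested genes. Same-numbered samples did not vary together throughout (r of their deviations −0.108 to 0.206), so the numbers were not taken as pairs. How reads shared by near-identical copies affect the single values of the Tuba1 and Tubb2 genes was not tested.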

Other observations

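For each tubulin gene the tested genes whose levels ran most alike, up to 3, over the 13 libraries after subtraction of the group mean, were listed with Pearson's r as a description. The libraries share their group and, in Whsc1-KO, the difference between replicates 1 to 3 and 4 to 6. A pair of members led each other's lists or nearly so: Tuba1c and Tubb4b had r = 0.98, and 0.94 over the 7 WT libraries alone. Tubb4b ran nearest to Rps27l (0.985) and Pidd1 (0.979), Tuba1c next to Plrg1 (0.978) and Hdac4 (0.972). Tuba1b ran with Snrpd3 (0.988), a core splicing protein, Ppia (0.981) and Eif2s1 (0.977). Tubb5 ran with Ncaph2 (0.955), a condensin subunit, the chaperonin subunit Cct7 (0.953; 0.93 in WT alone) and Acot7 (0.951). Tubb6 ran with Brca1 (0.97), Sfxn1 (0.921) and BC030867 (0.918), and Tubg1 with Polr2k (0.965), Stip1 (0.965) and Gpn3 (0.963). Tuba4a ran with 4930427A07Rik (0.969) and Ncbp1 (0.961), and Tubb2a with Grpel1 (0.925), Neto2 (0.906) and Gclm (0.896).

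The mean counts of Tubb2b and Tuba1a were not higher in Whsc1-KO replicates 4 to 6 than in 1 to 3, so their r with the members that were higher there adds nothing to those counts. Tubb2b ran against Tuba4a (r = −0.80), Tubg1 (−0.65) and Tubb4b (−0.62), and its nearest genes were Nxf2 (0.909), Rab36 (0.891) and Sh2d6 (0.878). Tuba1a had its highest r among the members with Tuba1b (0.40), and its nearest genes were Gm5422 (0.894), Thrb (0.885) and Mpdu1 (0.878).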
